A study of Mus musculus with 6 samples.

Results

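The genes described here encode the core proteins of pre-mRNA splicing, and 77 of the 51826 rows of the count table belong to them. Membership was decided by gene symbol alone: Srsf, Hnrnp, Sf3a or Sf3b, Snrp, Snrnp, Prpf and U2af names were taken, without regard to the count of any gene. The set itself was chosen with earlier results of the comparison of genotypes in view, so its counts and levels in that comparison are a description of the set and support nothing on their own. The 77 rows hold 20 hnRNP genes, 11 SR protein genes, 9 SF3a and SF3b genes, 13 Snrp genes, 7 Snrnp genes, 13 Prpf genes and 4 U2af rows. The symbol U2af1l4 stands on 2 rows, and the second of them is a different, overlapping gene model named Gm49396 in GENCODE. After the filter on low counts 76 rows were tested. The row left out was Snrpert, annotated as a processed pseudogene, which had 2 counts in 1 Lgmn-/--IR library and none in the other 5.

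Cortical RNA was compared between irradiated wild-type BALB/c mice (Lgmn+/+-IR, n = 3) and irradiated Lgmn-/- mice (Lgmn-/--IR, n = 3), all of them males of 6 to 8 weeks. Lgmn encodes the asparagine endopeptidase AEP, a lysosomal cysteine protease also called legumain. Every mouse of both groups received whole-brain X-rays in 1 dose of 10 Gy, and the cortex was taken on day 3. Libraries of non-irradiated mice were not analysed here, and every comparison is therefore of genotypes after irradiation. The Lgmn-/- mice carried a floxed Lgmn allele together with Cre and descended from 1 targeted embryonic stem cell clone. The promoter that drives Cre is not given in the sources used here. The labels do not say whether a library came from 1 animal, and the p values measure the spread between these libraries only.

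Introns are removed from pre-mRNA by the spliceosome, which is built anew on each intron from small nuclear ribonucleoproteins (snRNPs) and many further proteins. The U1 snRNP binds the 5′ splice site, the U2af proteins bind the 3′ splice site, the U2 snRNP with SF3a and SF3b takes the branch point, and the U4/U6.U5 tri-snRNP then joins and is remodeled for catalysis. SR proteins mostly bind exons and favor their inclusion, whereas hnRNPs coat pre-mRNA and often have the opposite effect. Neurons depend on an especially rich program of alternative splicing, and defects of splicing factors are a known cause of neurological and retinal disease.

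The total counts per library ranged from 41874462 to 46829441, and the splicing factor rows held between 0.673% and 0.723% of them. Lgmn had 130, 129 and 127 CPM (counts scaled to library size, TMM-normalized throughout) in the Lgmn+/+-IR libraries and 83.4, 70.4 and 93.6 CPM in the Lgmn-/--IR libraries. It fell to 0.64-fold (log2 fold change −0.64, SE 0.12, adjusted p = 0.0315 by edgeR's quasi-likelihood test), so Lgmn reads remained in every Lgmn-/--IR library. Without each of Lgmn+/+-IR replicates 1, 2 and 3 and Lgmn-/--IR replicate 1 the adjusted p of Lgmn was 0.103, 0.131, 0.104 and 0.0949. All 5 neuronal markers examined were detected, with a summed level of 6017 to 7124 CPM in Lgmn+/+-IR and 6758 to 8308 CPM in Lgmn-/--IR. The 3 choroid plexus markers summed to 18.5 to 41.8 CPM over the 6 libraries.

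The splicing factor genes were expressed well above the typical gene of this cortex. The median member had a mean of 57.2 CPM against 13.6 CPM for all 18345 genes tested, and 79.2% of all genes tested lay below the median member. Per length, the highest level of each family belonged to Snrpn (390 FPKM, mean of 6 libraries), Hnrnpa2b1 (121 FPKM), Prpf19 (96.2 FPKM), Sf3b2 (72.9 FPKM), U2af2 (63.0 FPKM), Srsf5 (61.5 FPKM) and Snrnp70 (30.5 FPKM). Snrpn encodes SmN, the neuronal counterpart of the Sm protein SmB, and the other leaders include an RNA-packaging hnRNP and the ubiquitin ligase at the center of the Prp19 complex. The family medians ran from 10.7 FPKM for Prpf to 47.9 FPKM for hnRNP.

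Across the set the differences between genotypes were small. Summed over all members, the level was 6705, 6582 and 6808 CPM in Lgmn+/+-IR and 7266, 6999 and 7313 CPM in Lgmn-/--IR. The groups did not overlap, and their means of 6698 ± 113 and 7193 ± 169 CPM (SD, n = 3 each) differed 1.07-fold. The summed FPKM was 2630 ± 30.2 in Lgmn+/+-IR and 2714 ± 87.1 in Lgmn-/--IR, a 1.03-fold difference. In bulk tissue fewer cells of a type and less RNA per cell cannot be told apart.

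Only Hnrnpu and Hnrnph3, both hnRNP genes and both higher in Lgmn-/--IR, passed an adjusted p of 0.05 by edgeR's quasi-likelihood test. They are 2.63% of the 76 members tested, where 3.33% of all genes tested passed, 1.65% higher and 1.68% lower. No member passed the study's thresholds of an adjusted p under 0.05 with an absolute log2 fold change over 1, which 2.06% of all genes passed. No member had an absolute log2 fold change over 1, and DESeq2 with the same thresholds also gave 0 members. At an adjusted p under 0.05 alone DESeq2 called 10 members, 13.2% of them, where it called 6.18% of all genes it tested. At an unadjusted p under 0.05 stood 20 members higher and 2 lower, or 26.3% and 2.63%, beside 9.26% and 9.34% of all genes. The log2 fold change was positive for 49 members and negative for 27, with a median of 0.09, against a median of −0.01 and 48.3% positive over all genes. For 22 members (28.9%) every Lgmn-/--IR library lay above every Lgmn+/+-IR library, which was so for 12.4% of all genes. For 4 members (5.26%) every Lgmn-/--IR library lay below, against 13.3% of all genes. Since the comparison of genotypes was known when the set was selected, these shares stand beside the background as a description, and nothing is read from them.

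**Figure D1:**
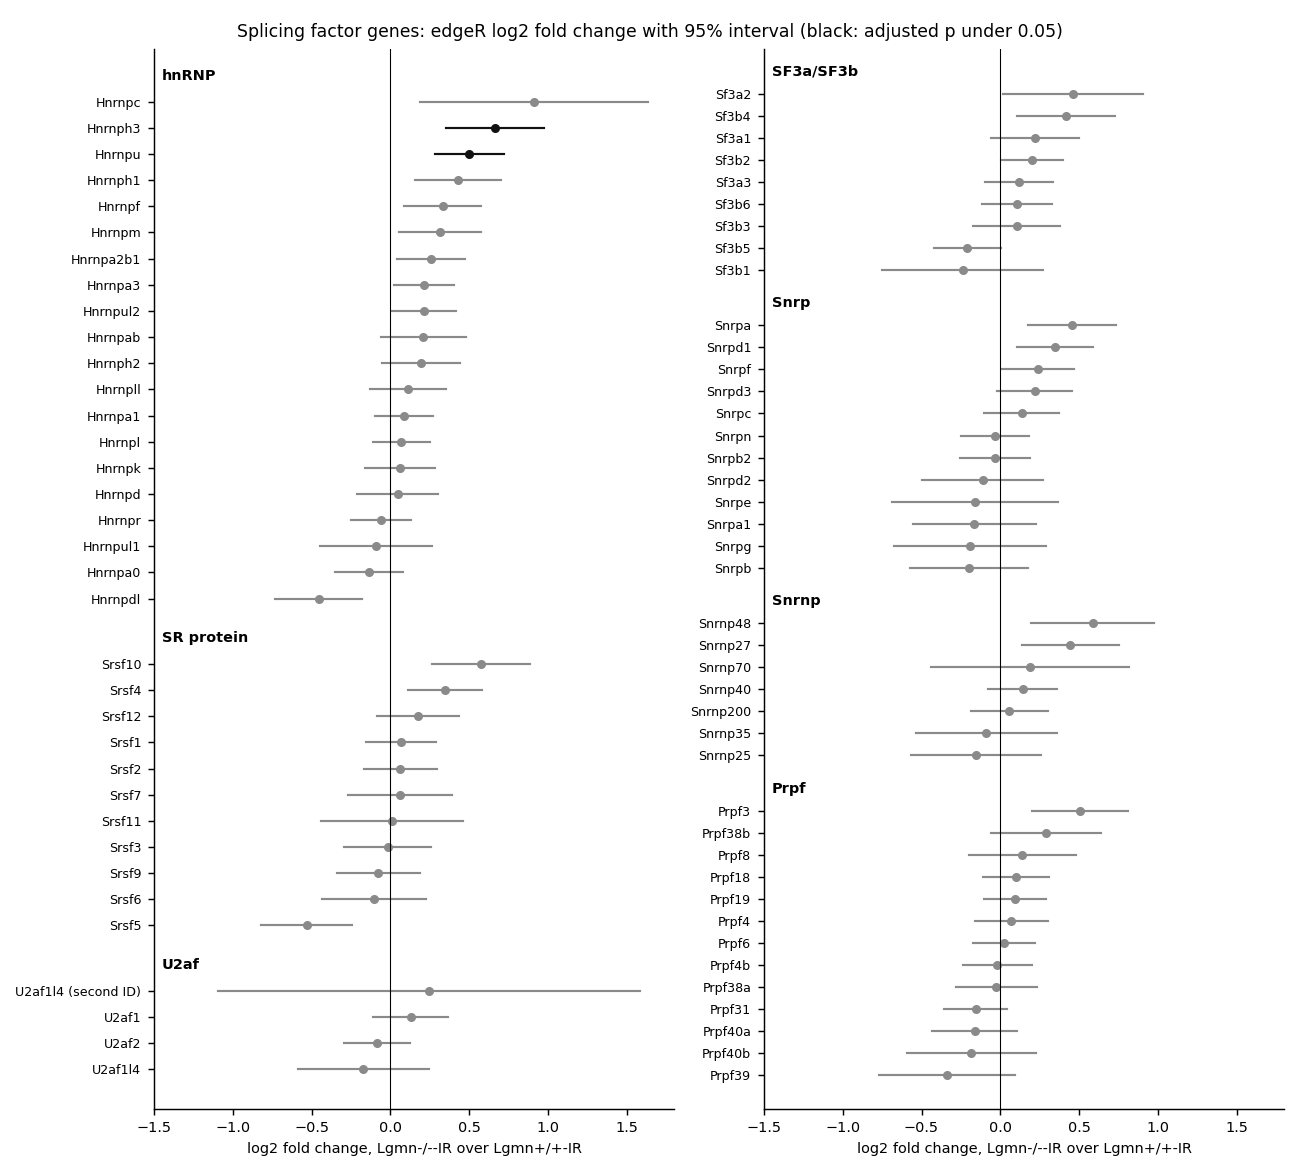
Log2 fold change (Lgmn-/--IR over Lgmn+/+-IR, x axis) of the 76 tested splicing factor rows with 95% intervals, grouped by family; black marks an adjusted p under 0.05. Most values lie within 0.5 of 0, and Hnrnpu and Hnrnph3 are the black points.

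Replicates of a genotype were close to each other for most members. For 64 of the 76 members the highest library was at most 1.5 times the lowest within both genotypes. The ratio exceeded 1.5 in 5 members among the Lgmn+/+-IR libraries and in 8 among the Lgmn-/--IR libraries. The largest ratios belonged to the second U2af1l4 row, at 3.12 within Lgmn+/+-IR and 4.10 within Lgmn-/--IR, then to Hnrnpc (2.30 within Lgmn+/+-IR) and Snrnp70 (2.09 within Lgmn+/+-IR). The standard error of the log2 fold change had a median of 0.11 over the members and 0.17 over all genes tested.

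**Figure D2:**
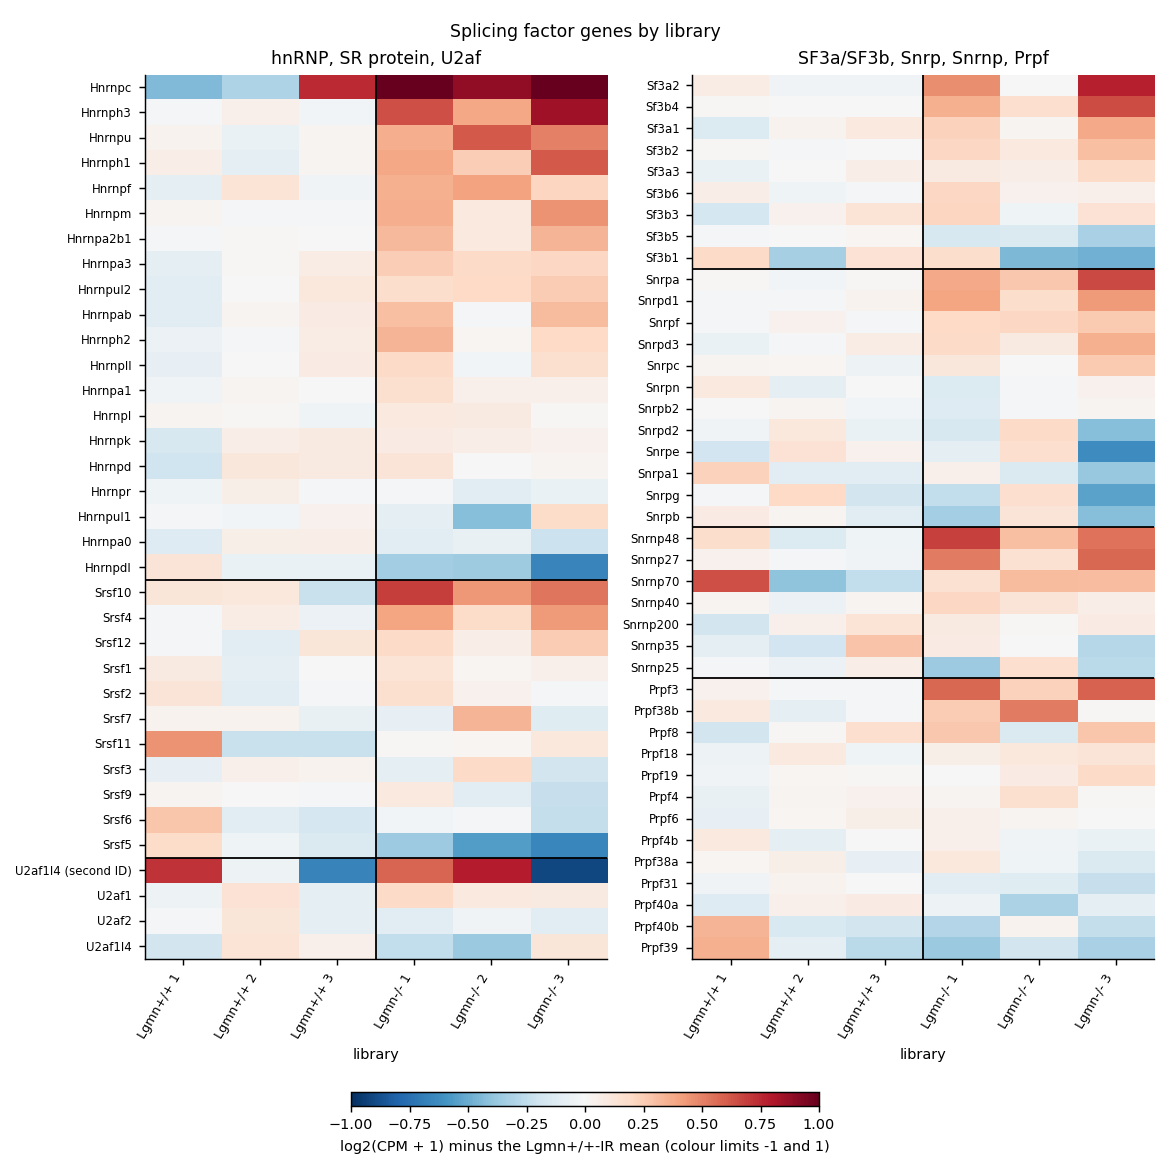
Level of each tested splicing factor row in each library as log2(CPM + 1) minus the Lgmn+/+-IR mean (red above, blue below), with families separated by black lines and genes ordered by log2 fold change. Hnrnpc in Lgmn+/+-IR replicate 3 and Snrnp70 in replicate 1 stand apart from the other libraries of their genotype.

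The promoters of 3 members whose levels recur in the results are shown, because they carry different arrangements of the common proximal motifs. They are Hnrnpu, which passed the test, Hnrnpc, which had the largest log2 fold change, and Srsf5, which had the lowest. The stretches are from RefSeq on GRCm38.p6, printed 5′ to 3′ on the strand of the gene, lie upstream of the RefSeq start and outside every GENCODE exon. They run from chr1:178337816-178337965 for Hnrnpu (minus strand), chr14:52104029-52104178 for Hnrnpc (minus strand) and chr12:80945397-80945498 for Srsf5 (plus strand). Capitals mark the GC box, with letters GGGCGG, the CCAAT box and the core of an ETS site, with letters CCGGAA, on either strand, and adjoining capitals can belong to overlapping matches.
Hnrnpu: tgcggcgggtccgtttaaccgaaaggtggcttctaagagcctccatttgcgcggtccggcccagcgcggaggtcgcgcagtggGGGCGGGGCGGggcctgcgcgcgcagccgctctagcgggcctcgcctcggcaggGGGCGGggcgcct
Hnrnpc: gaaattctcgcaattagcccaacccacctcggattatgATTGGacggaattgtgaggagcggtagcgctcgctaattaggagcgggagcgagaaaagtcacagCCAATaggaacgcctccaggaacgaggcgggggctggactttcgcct
Srsf5: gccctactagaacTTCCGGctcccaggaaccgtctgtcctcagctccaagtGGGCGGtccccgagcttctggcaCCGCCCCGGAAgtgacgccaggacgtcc
The Hnrnpu stretch holds only GC boxes, the Hnrnpc stretch only CCAAT boxes and the Srsf5 stretch both GC boxes and ETS cores, of which the pair nearest the start overlaps.

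RefSeq promoter windows were found for 65 of the 76 member symbols, 86 windows in all, and 250 bases before each start were searched on both strands. GGGCGG was in 64% of the member windows and in 32.7% of 32851 windows of all genes, and CCGGAA was in 41.9% and 12%. CCAAT was in 44.2% and 33.8%, CACGTG in 9.3% and 6.02%, and TATAAA in 8.14% and 12.4%. The inverted pairs found in heat shock elements, GAANNTTC and TTCNNGAA, were in 8.14% and 2.33% of the member windows against 6.69% and 7.17% of all windows. TGACGTCA, the cyclic AMP response element, was in 2.33% of the member windows and 1.55% of all windows. A gene with several starts counts once for each window, and a match describes the letters only.

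Among the hnRNPs, which bind nascent transcripts and regulate splicing, export and stability, the summed level was 2585, 2692 and 2819 CPM in Lgmn+/+-IR and 3134, 2976 and 3127 CPM in Lgmn-/--IR. The groups did not overlap, and the means of 2698 ± 117 and 3079 ± 89.5 CPM differed 1.14-fold. Of the 20 genes 16 had a positive log2 fold change, the median was 0.20, and 2 passed the test, which 3.33% of all genes did. In 10 of the 20 genes every Lgmn-/--IR library was above every Lgmn+/+-IR library, and in 1 every library was below, as in 12.4% and 13.3% of all genes.

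Hnrnpu (chromosome 1, 178321108 to 178337797, minus strand) encodes a nuclear scaffold protein that binds chromatin-associated RNA, and mutations of its human counterpart cause epilepsy. It had 254, 237 and 253 CPM in Lgmn+/+-IR and 320, 381 and 353 CPM in Lgmn-/--IR. By CPM all 3 Lgmn-/--IR libraries were above all 3 Lgmn+/+-IR libraries. Hnrnpu rose 1.41-fold (log2 fold change 0.50, SE 0.09, adjusted p = 0.0353 by edgeR's quasi-likelihood test). Without each of Lgmn+/+-IR replicates 1, 2 and 3 and Lgmn-/--IR replicates 2 and 3 the adjusted p was 0.0977, 0.176, 0.121, 0.0624 and 0.0998, with log2 fold changes from 0.44 to 0.53. By the deposited FPKM the genotypes overlapped for Hnrnpu. Lgmn-/--IR replicate 2, the highest library by CPM, had 52.7 FPKM, the lowest of its genotype and below Lgmn+/+-IR replicate 1 (54.3 FPKM). Mean FPKM still went from 47.7 ± 5.81 to 64.9 ± 11.1 (SD, n = 3 each). For Hnrnpu limma on log2(FPKM + 1) gave a log2 fold change of 0.43 with an adjusted p of 0.201. Exons of Cox20 on the opposite strand share 6.93% of the exon bases of Hnrnpu.

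Hnrnph3 (chromosome 10, 63014664 to 63024217, minus strand) encodes a small member of the hnRNP H/F group, which binds runs of G. It had 23.4, 24.5 and 23.3 CPM in Lgmn+/+-IR and 37.7, 31.3 and 43.5 CPM in Lgmn-/--IR. The Lgmn+/+-IR libraries lay close together, the groups did not overlap, and Hnrnph3 rose 1.58-fold (log2 fold change 0.66, SE 0.13, adjusted p = 0.0465 by edgeR's quasi-likelihood test). Without each of Lgmn+/+-IR replicates 1, 2 and 3 and Lgmn-/--IR replicates 1 and 3 the adjusted p was 0.129, 0.156, 0.158, 0.120 and 0.109. On the deposited FPKM the means were 14.2 ± 1.25 and 18.3 ± 2.07 (SD, n = 3), and limma on log2(FPKM + 1) gave an adjusted p of 0.182.

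The other members of the H/F group had positive differences that did not pass the test. Hnrnph1 was at 85.6, 76.2 and 83.0 CPM in Lgmn+/+-IR and at 107, 97.0 and 125 CPM in Lgmn-/--IR (log2 fold change 0.43, adjusted p = 0.108). Hnrnpf was at 45.4, 53.7 and 47.5 CPM in Lgmn+/+-IR and at 62.6, 64.9 and 56.9 CPM in Lgmn-/--IR (0.33, adjusted p = 0.157). By CPM the groups did not overlap for either gene. The deposited FPKM of Hnrnpf overlapped, at 26.9 FPKM in Lgmn-/--IR replicate 3 and 27.7 FPKM in Lgmn+/+-IR replicate 2. For Hnrnph2 the groups overlapped by CPM, at 119 to 130 CPM in Lgmn+/+-IR and 125 to 157 CPM in Lgmn-/--IR. Exons of 4933440N22Rik and Gm43863, both on the opposite strand, share 13.5% and 13.0% of the exon bases of Hnrnpf.

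Hnrnpc encodes the hnRNP C proteins, which bind runs of U and keep cryptic exons out of mRNA. It was at 63.9, 70.2 and 147 CPM in Lgmn+/+-IR and at 186, 162 and 180 CPM in Lgmn-/--IR, the largest log2 fold change of the set at 0.91 (SE 0.31, adjusted p = 0.180). Lgmn+/+-IR replicate 3 stood close to the Lgmn-/--IR libraries and above its own group, although the groups did not overlap. Without that library the log2 fold change of Hnrnpc was 1.39 with an adjusted p of 0.00514. Without Lgmn+/+-IR replicate 1 it was 0.71 (adjusted p = 0.303), without replicate 2 it was 0.74 (adjusted p = 0.416), and without each Lgmn-/--IR library it lay between 0.87 and 0.97 and did not pass. For the same gene DESeq2 on all 6 libraries gave 0.92 with an adjusted p of 0.0253.

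Hnrnpdl, a relative of Hnrnpd that regulates its own mRNA through an alternatively spliced exon, was the single hnRNP gene whose Lgmn-/--IR libraries all lay below. It had 162, 141 and 140 CPM in Lgmn+/+-IR and 115, 115 and 92.9 CPM in Lgmn-/--IR (log2 fold change −0.45, adjusted p = 0.0953 by edgeR and 0.0399 by DESeq2). The A/B group, which packages pre-mRNA, showed smaller differences. Hnrnpa2b1 was at 192, 196 and 195 CPM in Lgmn+/+-IR and at 243, 207 and 245 CPM in Lgmn-/--IR (0.26, adjusted p = 0.203). Hnrnpa3 (0.21) and Hnrnpa1 (0.09) also did not overlap by CPM, whereas Hnrnpa0 (−0.14) and Hnrnpab (0.21) did. The deposited FPKM of Hnrnpa1 overlapped, at 99.8 FPKM in Lgmn-/--IR replicate 3 and 103 to 109 FPKM in Lgmn+/+-IR.

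**Figure D3:**
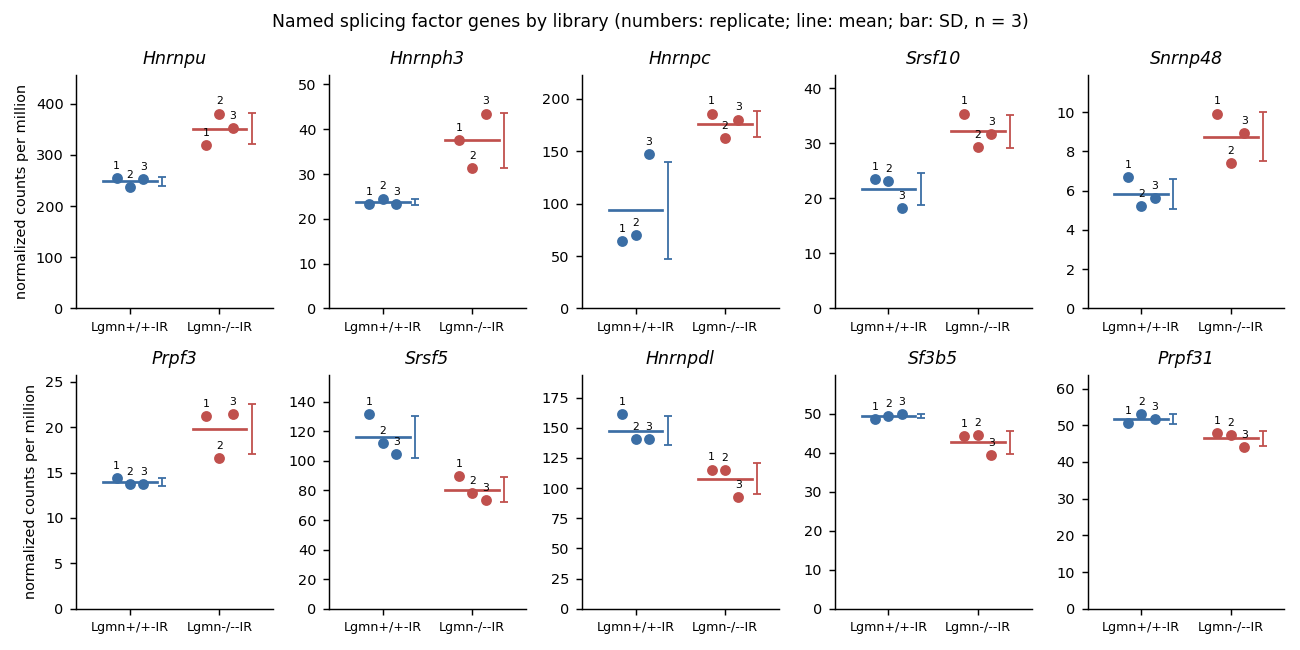
Normalized CPM (y axis, from 0) of 10 splicing factor genes in each library, with the replicate number above each point, the mean as a line and the SD as a bar (n = 3). The 10 genes were picked from members whose libraries did not overlap between genotypes, so the separation in each panel follows from that choice. In the first 6 panels the Lgmn-/--IR libraries lie above those of Lgmn+/+-IR. The last 4 panels (Srsf5, Hnrnpdl, Sf3b5 and Prpf31) have them below.

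The SR proteins, which bind exonic enhancers and recruit U1 and U2af, had summed levels that overlapped between genotypes, at 734, 651 and 635 CPM in Lgmn+/+-IR and 688, 680 and 638 CPM in Lgmn-/--IR. Of the 11 genes 7 had a positive and 4 a negative log2 fold change, and the median was 0.06. None passed edgeR's quasi-likelihood test, while 3 had an unadjusted p under 0.05 and DESeq2 called 2. Over all genes these shares were 3.33%, 18.6% and 6.18%. Lgmn+/+-IR replicate 1 was the highest Lgmn+/+-IR library in 8 of the 11 genes. The same library was high in nuclear long RNAs, with Meg3 at 1431 CPM against 575 and 457 CPM in the other Lgmn+/+-IR libraries, and the part of this in the SR protein levels was not tested.

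Srsf5, induced by insulin and growth signals, had the lowest log2 fold change of the set. It was at 132, 112 and 104 CPM in Lgmn+/+-IR and at 89.8, 78.1 and 73.3 CPM in Lgmn-/--IR (−0.53, SE 0.12, adjusted p = 0.0708 by edgeR). The groups did not overlap. DESeq2 gave an adjusted p of 0.0132, and limma on log2(FPKM + 1) gave −0.60 with an adjusted p of 0.0371.

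Srsf10, which acts as a repressor of splicing when it loses phosphate during heat shock, had a positive difference. It was at 23.4, 23.1 and 18.3 CPM in Lgmn+/+-IR and at 35.4, 29.4 and 31.6 CPM in Lgmn-/--IR (0.57, SE 0.13, adjusted p = 0.0706 by edgeR and 0.00717 by DESeq2). Srsf4 was at 61.9 to 68.3 CPM in Lgmn+/+-IR and 73.5 to 87.4 CPM in Lgmn-/--IR (0.34, adjusted p = 0.132), but Gm12992 on the opposite strand shares 43.0% of its exon bases. The remaining 8 SR genes overlapped between genotypes, among them Srsf1 (log2 fold change 0.07, 95% interval −0.15 to 0.29), Srsf2 (0.06, −0.17 to 0.29) and Srsf3 (−0.02, −0.29 to 0.26).

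The U1 snRNP proteins are encoded by Snrnp70, Snrpa and Snrpc, and all 3 had positive log2 fold changes. None passed edgeR's quasi-likelihood test, 1 had an unadjusted p under 0.05 and DESeq2 called 1, beside 3.33%, 18.6% and 6.18% of all genes. Snrpa, which binds a stem-loop of U1 RNA, was at 59.3, 57.9 and 59.4 CPM in Lgmn+/+-IR and at 76.6, 71.3 and 93.8 CPM in Lgmn-/--IR (0.45, adjusted p = 0.0987). The groups did not overlap, and exons of BC024978 on the opposite strand share 11.03% of its exon bases. Snrnp70, which anchors U1 to SR proteins, was at 99.1, 47.5 and 52.9 CPM in Lgmn+/+-IR and at 70.1, 78.5 and 78.2 CPM in Lgmn-/--IR. Lgmn+/+-IR replicate 1 was above every other library, the log2 fold change was 0.19 (95% interval −0.44 to 0.82), and without replicate 1 it was 0.60 with an adjusted p of 0.0666. Without replicate 2 it was −0.0069 (adjusted p = 0.995) and without replicate 3 it was 0.046 (adjusted p = 0.956).

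The 11 genes of the U2 snRNP, SF3a and SF3b complexes summed to 835, 786 and 855 CPM in Lgmn+/+-IR and to 940, 795 and 915 CPM in Lgmn-/--IR, with overlap. None passed edgeR's quasi-likelihood test or DESeq2, beside 3.33% and 6.18% of all genes. At an unadjusted p under 0.05 by edgeR stood 3 of the 11, beside 18.6% of all genes. Sf3b4, whose human counterpart is mutated in a craniofacial syndrome, was at 48.7, 48.2 and 48.4 CPM in Lgmn+/+-IR and at 62.4, 54.6 and 76.9 CPM in Lgmn-/--IR (0.42, adjusted p = 0.161). Sf3b2 was at 245 to 250 CPM in Lgmn+/+-IR and at 265 to 305 CPM in Lgmn-/--IR (0.20, adjusted p = 0.258). In both genes the Lgmn+/+-IR libraries were nearly equal and the Lgmn-/--IR libraries lay above them with a wider spread.

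Sf3b5, a small SF3b subunit, was at 48.7, 49.4 and 49.9 CPM in Lgmn+/+-IR and at 44.2, 44.5 and 39.3 CPM in Lgmn-/--IR (−0.21, adjusted p = 0.272), the one gene of these complexes that lay below without overlap. Sf3b1, the largest SF3b subunit and the one that holds the branch point, was at 195, 136 and 189 CPM in Lgmn+/+-IR and at 193, 125 and 122 CPM in Lgmn-/--IR. The Sf3b1 libraries varied within both genotypes, and its log2 fold change of −0.24 had a 95% interval from −0.75 to 0.27. Sf3a2 reached 51.1, 37.0 and 63.9 CPM in Lgmn-/--IR against 35.8 to 38.8 CPM in Lgmn+/+-IR (0.46, adjusted p = 0.255), with Plekhj1 on the opposite strand sharing 16.1% of its exon bases.

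The Sm proteins form the ring on which every spliceosomal snRNP except U6 is assembled. Their 8 genes summed to 1177, 1073 and 1114 CPM in Lgmn+/+-IR and to 1037, 1142 and 1131 CPM in Lgmn-/--IR. The median log2 fold change was −0.07, and none passed edgeR's quasi-likelihood test or DESeq2, beside 3.33% and 6.18% of all genes. At an unadjusted p under 0.05 by edgeR stood 2 of the 8, beside 18.6% of all genes. Snrpn made up most of the sum, at 926, 809 and 866 CPM in Lgmn+/+-IR and 789, 860 and 893 CPM in Lgmn-/--IR (−0.03, 95% interval −0.25 to 0.18). Its exons are shared with Snurf and Gm38393 on the same strand, so its count is uncertain.

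The other ring genes split into groups by library. Snrpd1 was at 23.4, 23.5 and 24.4 CPM in Lgmn+/+-IR and at 31.4, 27.0 and 32.3 CPM in Lgmn-/--IR (0.35, adjusted p = 0.133), without overlap. Snrpd3 (0.22) and Snrpf (0.24) also did not overlap, although Ccdc38 on the opposite strand shares 65.9% of the exon bases of Snrpf. Snrpb, Snrpd2, Snrpe and Snrpg instead had their highest Lgmn-/--IR value in replicate 2 and their lowest in replicate 3, as with Snrpe at 13.7, 16.6 and 9.11 CPM. These 4 genes overlapped between genotypes, with log2 fold changes from −0.20 to −0.11.

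For the U4/U6.U5 tri-snRNP, 7 of 8 genes had a positive log2 fold change, and the sums of 503, 557 and 593 CPM in Lgmn+/+-IR and 623, 535 and 617 CPM in Lgmn-/--IR overlapped. Prpf3, a U4/U6 protein mutated in retinitis pigmentosa, was at 14.4, 13.7 and 13.7 CPM in Lgmn+/+-IR and at 21.3, 16.6 and 21.5 CPM in Lgmn-/--IR (0.50, SE 0.13, adjusted p = 0.0953 by edgeR and 0.0258 by DESeq2). Without Lgmn-/--IR replicate 2, the lowest of its group, the adjusted p of Prpf3 was 0.0400, and without each of the other 5 libraries it was between 0.179 and 0.281. Snrnp27, a tri-snRNP protein with an SR-rich region, was at 22.5, 21.6 and 21.3 CPM in Lgmn+/+-IR and at 31.6, 24.4 and 32.9 CPM in Lgmn-/--IR (0.44, adjusted p = 0.135).

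Prpf31, a further U4/U6 protein of the same disease, lay below without overlap, at 50.5, 53.1 and 51.7 CPM in Lgmn+/+-IR and 47.8, 47.4 and 44.0 CPM in Lgmn-/--IR (−0.16, adjusted p = 0.375). Exons of Gm15927 on the opposite strand share 18.1% of the exon bases of Prpf31. The catalytic core protein Prpf8 (0.14, 95% interval −0.20 to 0.48) and the helicase Snrnp200 (0.06, −0.19 to 0.30) overlapped between genotypes. Prpf8 was at 201, 230 and 256 CPM in Lgmn+/+-IR and at 275, 207 and 276 CPM in Lgmn-/--IR. Lgmn-/--IR replicate 2 thus lay below replicates 1 and 3 for Prpf8, Prpf3 and Snrnp27, and also for Snrnp200. For Prpf4, Prpf6, Prpf31 and Snrnp40, the rest of the tri-snRNP genes, replicate 3 was instead the lowest.

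The U11/U12 snRNP of the minor spliceosome, which removes a rare class of introns, has 3 genes in the set. Snrnp48 was at 6.70, 5.21 and 5.61 CPM in Lgmn+/+-IR and at 9.93, 7.41 and 8.93 CPM in Lgmn-/--IR (0.58, SE 0.17, adjusted p = 0.123 by edgeR and 0.0446 by DESeq2), without overlap. Snrnp25 (−0.15, 95% interval −0.56 to 0.26) and Snrnp35 (−0.09, −0.54 to 0.36) overlapped between genotypes.

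Of the Prpf genes outside the tri-snRNP the log2 fold changes ran from −0.34 for Prpf39 to 0.29 for Prpf38b, and the libraries of each overlapped between genotypes. Prpf19 was at 210, 219 and 217 CPM in Lgmn+/+-IR and at 214, 227 and 246 CPM in Lgmn-/--IR (0.09, 95% interval −0.11 to 0.29). Prpf39 and Prpf40b, both associated with U1, had their highest value in Lgmn+/+-IR replicate 1, at 20.5 and 53.6 CPM. The whole Prpf family summed to 813 ± 22.2 CPM in Lgmn+/+-IR against 848 ± 36.7 CPM in Lgmn-/--IR.

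The U2af heterodimer, which reads the polypyrimidine tract and the AG at the end of the intron, differed little. U2af2 was at 154, 170 and 146 CPM in Lgmn+/+-IR and at 145, 153 and 144 CPM in Lgmn-/--IR (−0.09, 95% interval −0.30 to 0.12). U2af1 was at 40.4 to 47.9 CPM in Lgmn+/+-IR and 46.1 to 49.6 CPM in Lgmn-/--IR (0.13). The row of Gm49396 shares 65.6% of the exon bases of U2af1l4, so the counts of both are uncertain.

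**Figure D4:**
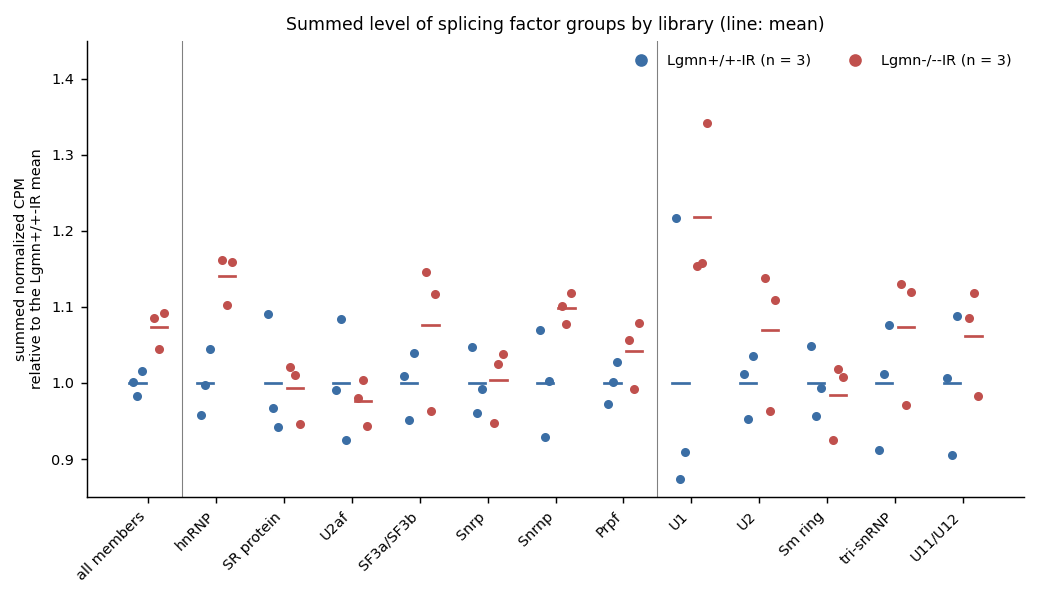
Summed CPM of all members, of each family and of each snRNP in each library, divided by the Lgmn+/+-IR mean (y axis); lines are means (n = 3). The Lgmn-/--IR libraries lie above all Lgmn+/+-IR libraries for the whole set, the hnRNPs and the Snrnp family, and overlap with them for the other groups.

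Some of these counts cannot be assigned to the member with certainty. Exons of another gene share bases with 28 of the member rows and cover more than 10% of 12 of them, 8 on the opposite strand, and whether strand was used in counting is not stated. The counts also join all transcripts of a gene. Splicing factor genes are known to limit their own expression through transcripts with poison exons or retained introns. In GENCODE 36 of the 76 protein-coding members (47.4%) have a transcript annotated for nonsense-mediated decay, against 26.7% of all tested protein-coding genes, and 55 (72.4%) have a retained-intron transcript, against 54.7%. Such transcripts are 43.3% of all annotated transcripts of the members, against 31.1% for all tested protein-coding genes. The share with a decay transcript was 100% of the 4 U2af rows, 81.8% of the SR genes and 11.1% of the SF3 genes. A gene count therefore does not show which share of the reads codes for protein, and splicing itself was not measured here.

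In the rest of the splicing pathway, taken from 9 lists, 142 of 143 genes were tested, and 3 rose and 3 fell by edgeR's quasi-likelihood test, 4.23% against the background of 3.33%. The median log2 fold change over these genes was 0.08. The 3 calls higher were 1 of 15 SR-like proteins and SR partners, 1 of 19 FET, paraspeckle and related RNA-binding proteins and 1 of 10 genes of the Lsm ring, and the 3 lower were a further 2 of the 19 and 1 of 27 genes of the catalytic spliceosome and its helicases. No gene passed edgeR's test among 9 SR kinases and phosphatases and 11 factors of the 3′ splice site and branch point, each list with 1 gene at an unadjusted p under 0.05 and none called by DESeq2. The same held for 12 genes of the SMN complex and Sm methylation, with 3 at an unadjusted p under 0.05 and none by DESeq2. None of 26 neuronal and tissue splicing regulators passed (3 unadjusted, 1 by DESeq2), nor did any of 13 exon junction and decay factors (4 unadjusted, 2 by DESeq2). Over all genes 18.6% had an unadjusted p under 0.05 by edgeR, and DESeq2 called 6.18%. These lists were written with earlier results of the same data known.

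Tra2a, a splicing activator related to SR proteins, was at 43.6, 38.3 and 36.3 CPM in Lgmn+/+-IR and at 57.9, 64.5 and 62.0 CPM in Lgmn-/--IR, and rose 1.56-fold (adjusted p = 0.0225). Sfpq, a paraspeckle protein needed for long neuronal introns, was at 97.2, 94.98 and 94.0 CPM in Lgmn+/+-IR and at 153, 135 and 181 CPM in Lgmn-/--IR, and rose 1.64-fold (adjusted p = 0.0238). Lsm6, of the ring on U6 RNA, was at 28.3, 30.6 and 30.7 CPM in Lgmn+/+-IR and at 44.9, 44.7 and 42.1 CPM in Lgmn-/--IR, and rose 1.47-fold (adjusted p = 0.0201). None of the 3 genes overlapped between genotypes.

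Isy1, a protein of the catalytic spliceosome, was at 37.7, 39.4 and 38.3 CPM in Lgmn+/+-IR and at 25.8, 24.9 and 29.1 CPM in Lgmn-/--IR, and fell to 0.69-fold (adjusted p = 0.0321). Cirbp, a cold-inducible RNA-binding protein, was at 77.1, 76.9 and 74.8 CPM in Lgmn+/+-IR and at 48.5, 45.02 and 33.9 CPM in Lgmn-/--IR, and fell to 0.56-fold (adjusted p = 0.0237). Rbm3, the second cold-inducible protein, was at 104, 91.0 and 96.0 CPM in Lgmn+/+-IR and at 66.0, 64.7 and 54.3 CPM in Lgmn-/--IR, and fell to 0.64-fold (adjusted p = 0.0238). None of these 3 genes overlapped between genotypes either. Like the 3 genes above, they were picked because they passed the test, so the lack of overlap adds no support. Without Lgmn+/+-IR replicates 1, 2 and 3 in turn 2, 1 and 0 pathway genes were called. For Lgmn-/--IR replicates 1, 2 and 3 left out in turn it was 1, 2 and 4. Between 1.19% and 2.68% of all genes were called in those fits. The highest adjusted p with a library left out was 0.0941 for Lsm6, 0.116 for Tra2a, 0.103 for Cirbp, 0.119 for Sfpq and 0.149 for Isy1, each without Lgmn+/+-IR replicate 2, and 0.0872 for Rbm3 without replicate 3.

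Other gene lists moved with genotype beside the splicing factors. Of 6 heat shock genes 3 (Hspa1a, Hspa1b and Hsph1) rose by edgeR's test. The list summed to 1833 to 2151 CPM in Lgmn+/+-IR and to 2551 to 3104 CPM in Lgmn-/--IR. All 6 had a positive log2 fold change (median 0.70), 5 had an unadjusted p under 0.05 by edgeR and DESeq2 called 5. Hspa1b, an inducible chaperone, was at 10.1, 11.7 and 10.9 CPM in Lgmn+/+-IR and at 46.1, 93.0 and 85.6 CPM in Lgmn-/--IR. Of 4 oligodendrocyte markers 3 (Mog, Mag and Cnp, which encode proteins of myelin) fell by edgeR's quasi-likelihood test, with sums of 1051 to 1287 CPM in Lgmn+/+-IR and 838 to 947 CPM in Lgmn-/--IR. Mog went from 79.0 ± 9.70 to 42.05 ± 5.40 CPM, Mag from 149 ± 14.4 to 104 ± 3.82 CPM and Cnp from 364 ± 33.5 to 226 ± 32.1 CPM (SD, n = 3 each). Of 5 astrocyte markers 1 (Aqp4) rose by edgeR's test, with sums of 2746 to 2930 CPM in Lgmn+/+-IR and 2557 to 3050 CPM in Lgmn-/--IR. The log2 fold change was positive for 4 of these 5 markers (median 0.33). At an unadjusted p under 0.05 by edgeR stood 3 of them, and DESeq2 called 2. All 5 erythroid genes rose, with sums of 7.59 to 15.8 CPM and 234 to 2273 CPM, lowest of the Lgmn-/--IR libraries in replicate 3. The 5 microglial markers summed to 175 to 200 CPM in Lgmn+/+-IR and to 146 to 159 CPM in Lgmn-/--IR, without overlap, and all 5 had a negative log2 fold change (median −0.33). None of 5 neuronal and 5 microglial markers passed edgeR's quasi-likelihood test, with 0 and 2 at an unadjusted p under 0.05 and 0 and 1 called by DESeq2. Over all genes 3.33% passed edgeR's test, 18.6% had an unadjusted p under 0.05 and DESeq2 called 6.18%. The part of these lists in the levels of Hnrnpu, Hnrnph3 and the other splicing factor genes was not tested.

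**Figure D5:**
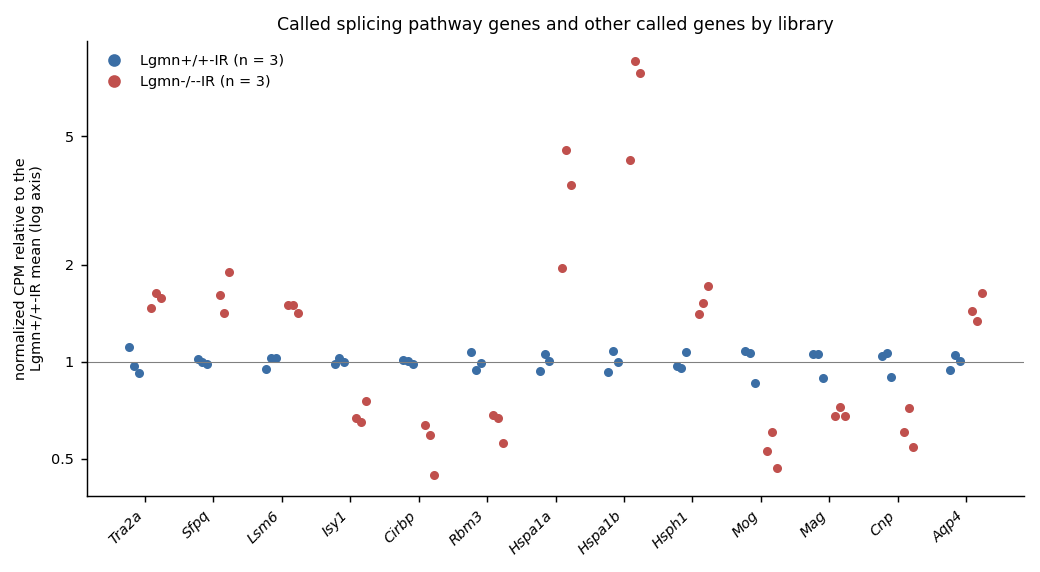
Normalized CPM of the 6 pathway genes that passed the test and of heat shock and glial genes that passed it, divided by the Lgmn+/+-IR mean, on a log axis. The Lgmn-/--IR libraries lie on one side of the Lgmn+/+-IR libraries for each gene, above for Tra2a, Sfpq, Lsm6, the heat shock genes and Aqp4 and below for the others.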

How the data were processed

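The deposited tables of 6 cortical samples, 3 of each genotype, were analysed. The authors filtered reads with Trimmomatic 0.36 (version and build GRCm38 from the submitters' processing notes), mapped them with HISAT2 and deposited the raw count of each gene in each library. The authors also deposited FPKM, computed with StringTie. The read counter and its strand setting are not given in the sources used here. Gene positions and transcript classes came from GENCODE M21 on GRCm38, in which 51633 of 51826 gene IDs were found, and promoter sequences from RefSeq.

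The count model was edgeR 4.0.16 (R 4.3.3), with TMM scaling, the filterByExpr filter applied by genotype and a quasi-likelihood test of genotype alone. The p values were adjusted over 18345 genes by the Benjamini-Hochberg method, and a gene was called at an adjusted p under 0.05. The fit was made on the whole table, and the script was tested on simulated data. Alternatives were DESeq2 1.42.0, limma 3.58.1 with voom or on log2(FPKM + 1) and log2(FPKM + 0.1), 3 other scalings, 2 other filters, the replicate number as a block, protein-coding members only and the omission of each library. Reads carry no molecular identifiers, so counting error is only a part of the error. Libraries of one genotype differed by a mean chi-square of 28.7 to 102 per gene and were counted as separate samples.

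The members and all gene lists were chosen with earlier results of these data known. Members are named if called, if among the 6 largest differences in each direction without overlap between genotypes (4 exist below), or if the most abundant of a family by FPKM. Called pathway genes are named too, and other members appear to fill out their complex and were chosen after their values were seen. Of the oligodendrocyte list, 1 marker is not reported here.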

Additional observations from a re-analysis of the deposited data

How the results depend on the processing

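The number of members called, 2 by edgeR, was 10 with DESeq2, where 6.18% of all genes were called. The 10 were 8 higher and 2 lower: 5 hnRNP, 2 SR protein and 1 each of the Prpf, Snrnp and Snrp families. With library totals as the only scaling, with limma-voom and with a minimum of 10 counts per library the number was 1, an hnRNP gene. Of all genes 3.03%, 3.24% and 2.44% were called in these settings. With limma on log2(FPKM + 1) and on log2(FPKM + 0.1) the number was 1, the SR protein gene Srsf5, and 0 hnRNP genes. The share of all genes called was 3.11% and 3.13%. Without a filter on low counts 0 members were called, where 1.3% of 31094 genes were, and 22 members had an unadjusted p under 0.05. With single libraries left out the number of members called was between 0 and 3, where between 1.19% and 2.68% of all genes were called. It was between 0 and 1 for hnRNP, for Prpf and Snrnp, and for the study's thresholds. Calls of pathway genes were 11 with DESeq2 (7 higher and 4 lower) and between 0 and 4 with single libraries left out. The median log2 fold change of the members, 0.09, was 0.052 with library totals and 0.041 and 0.043 with the FPKM fits, beside medians of all genes of −0.05, −0.04 and −0.05, and between 0.060 and 0.098 with single libraries left out. The summed level, 1.07-fold by CPM, was 1.03-fold by FPKM. Lgmn had a log2 fold change of −0.63 without a filter (adjusted p = 0.0632) and between −0.74 and −0.54 with single libraries left out. Snrpn, at −0.03, was between −0.081 and 0.024 and Snrnp70, at 0.19, between −0.0069 and 0.60 with single libraries left out, a change of sign in both. The cause of these changes was not tested. Of 352 comparisons of 22 named genes with an alternative, 281 kept direction and call, 58 lost the call, 10 gained it and 3 changed sign. Only Hnrnph3, Hnrnpu and the 6 called pathway genes had a call to lose. Of 16 alternatives each, Hnrnph3 lost it in 11 and Hnrnpu in 10. The pathway genes lost it in 5 (Lsm6, Cirbp and Sfpq), 6 (Tra2a), 7 (Rbm3) and 9 (Isy1).

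With the replicate number as a block in the same edgeR test (replicate block) 0 members were called, where 0.818% of all genes were, 0 of the hnRNP genes among them, with 16 members at an unadjusted p under 0.05. Under the same block 0 pathway genes were called, with 23 at an unadjusted p under 0.05, and Lgmn had −0.65 (adjusted p = 0.113). A number shared by both genotypes stands for different mice, and the labels do not say what else it denotes. The deviations of same-numbered libraries correlated across genes at −0.31, −0.05 and −0.05. Those of different-numbered libraries correlated at −0.21 to 0.27. With so few libraries these values cannot tell whether the numbers pair the samples. Depth limits Snrpert, which had 2 counts in all.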

Other observations

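A few splicing regulators outside the set differed sharply between libraries of one genotype, and they were chosen after their values were seen. Luc7l, a U1-associated protein, was at 79.7, 20.2 and 82.5 CPM in Lgmn+/+-IR and at 19.9, 18.3 and 64.9 CPM in Lgmn-/--IR, so that both genotypes held libraries near 20 and libraries above 60 CPM. Rbfox2, a regulator of neuronal and muscle exons, was at 239 to 279 CPM in 5 libraries and at 55.4 CPM in Lgmn-/--IR replicate 3. Tardbp, which encodes TDP-43, was at 65.4, 23.5 and 46.3 CPM in Lgmn+/+-IR and at 20.3 to 24.8 CPM in Lgmn-/--IR (log2 fold change −0.97, adjusted p = 0.185). Tia1 was at 15.5 CPM in Lgmn+/+-IR replicate 2 and at 27.6 to 38.6 CPM in the other 5 libraries. With 3 libraries in a genotype no test of a single library was made.

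Srrm2, a scaffold of nuclear speckles, was highest in Lgmn+/+-IR replicate 1, at 232, 132 and 121 CPM in Lgmn+/+-IR, as were Snrnp70 (99.1, 47.5 and 52.9 CPM), Srsf11 (88.7, 55.5 and 55.3 CPM) and Malat1 (254, 123 and 127 CPM). In Lgmn-/--IR these genes were at 190 to 214 CPM for Srrm2, 70.1 to 78.5 CPM for Snrnp70, 65.2 to 69.9 CPM for Srsf11 and 105 to 145 CPM for Malat1. For each of the 4 genes the highest of the 6 libraries was thus a Lgmn+/+-IR library, while the other 2 Lgmn+/+-IR libraries of Srrm2, Snrnp70 and Srsf11 lay below all Lgmn-/--IR libraries.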
